A study of Mus musculus with 9 samples.

Results

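Interferon stimulated genes were followed in the livers of db/db mice, as 39 genes taken by symbol from a listed set. Each of the 39 symbols had 1 row among the 28517 genes of the deposited table, and all 39 were past the low-count filter that left 18142 genes. The mice received FGF19ΔKLB, FGF19WT or PBS vehicle for 12 weeks, with 3 libraries of total liver RNA per group. FGF19 is a human gut hormone, with Fgf15 as its mouse counterpart, that acts on hepatocytes through FGFR4 and the co-receptor β-klotho, encoded by Klb. The series concerns the tumorigenic risk of FGF19 and its lowering through weaker dimerization of the receptors. All 3 groups share the db/db background, a loss of the leptin receptor with obesity and diabetes. The change that FGF19ΔKLB carries, the dose and route, and the age and sex of the mice are not given in the sources used here. Nothing there says that the libraries of a group came from separate animals, so p-values measure the spread between these libraries only.

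Interferons are cytokines that put cells into an antiviral state. Type I interferons bind the receptor of Ifnar1 and Ifnar2, and the kinases JAK1 and TYK2 then activate STAT proteins, STAT2 among them. STAT2 and IRF9 are parts of a complex that binds the interferon-stimulated response element of target genes. Interferon gamma binds Ifngr1 and Ifngr2 and acts mainly through the gamma-activated site of its target genes. The induced genes encode sensors of viral RNA, enzymes and binding proteins that block viral RNA, GTPases that attack pathogen vacuoles, and factors that amplify or end the signal. In liver, hepatocytes, Kupffer cells, which are the resident macrophages, and sinusoidal endothelial cells all respond to interferon.

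Library totals ran from 65081522 to 73294927 counts, taken here as about 4 counts to a read pair. FGF19WT libraries 2 and 3 stood apart. On the first principal component, with 58.3% of the variance, they lay at 81.6 and 98.9, while the other 7 libraries, FGF19WT 1 among them, lay between −34.7 and −10.7. Medians and sign counts over genes that rest on these libraries are therefore given with and without them. Without both, only FGF19WT 1 is left in its group, so such FGF19WT values describe that library and not the group. The 10 hepatocyte markers summed to between 239445 and 339540 CPM (counts scaled to library size with TMM factors) with FGF19ΔKLB, 119805 to 239730 with FGF19WT and 127682 to 186614 with vehicle.

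The response element was sought in promoters as 2 copies of GAAA with 2 bases of any kind between them, on either strand. RefSeq promoters on GRCm38.p6, from 250 bases before to 50 after the start site, were matched for 29 of the 39 genes. A gene counted where any of its promoters held a match. Of the 29 genes 18 held the element (62.1%, exact 95% interval 42.3 to 79.3), against 3.99% of all 27025 genes with such promoters. By promoter it was 3.44% of all 32851. The gamma-activated site, searched as TTCNNNGAA on both strands, was in 9 of the 29 (31.0%, exact interval 15.3 to 50.8), against 9.55% of all genes. A stricter element, with a C after the second GAAA, was in 15 of the 29 (51.7%), against 0.944% of all genes. These shares say nothing of the treatments. The 160 bases before the start site are shown where a gene is first described, on the gene's strand, with the response element in capitals. Start sites are those of RefSeq, while gene positions are those of the deposited table, and the 2 can differ. The bases shown for Gbp2, Gbp3, Ifit1 and Ifi44 thus reach into the gene as positioned in the deposited table.

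Levels per transcript length, in the authors' FPKM (fragments per kilobase of transcript, scaled to library size), differed widely. Bst2, which tethers virions to the cell surface, had the highest mean over the 9 libraries at 90.4 FPKM. It was followed by Ifi27, a small membrane protein, at 59.0, by the GTPases Iigp1 at 33.1 and Igtp at 32.6, and by the ubiquitin-like modifier Isg15 at 18.9. Oas3, a synthetase of oligoadenylates that activate RNase L, was lowest at 0.124. The ratio of the highest to the lowest library was greatest for Gbp2, at 38.4, and next for Gbp7 at 19.4, Ifit2 at 17.6 and Gbp3 at 11.6. It was smallest for Ifi35, at 1.47. The genes with the widest range were mostly GTPases of the Gbp family, whose lowest values were in FGF19WT 2 and 3, apart from Ifit2, which was lowest in vehicle 1.

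**Figure D1:**
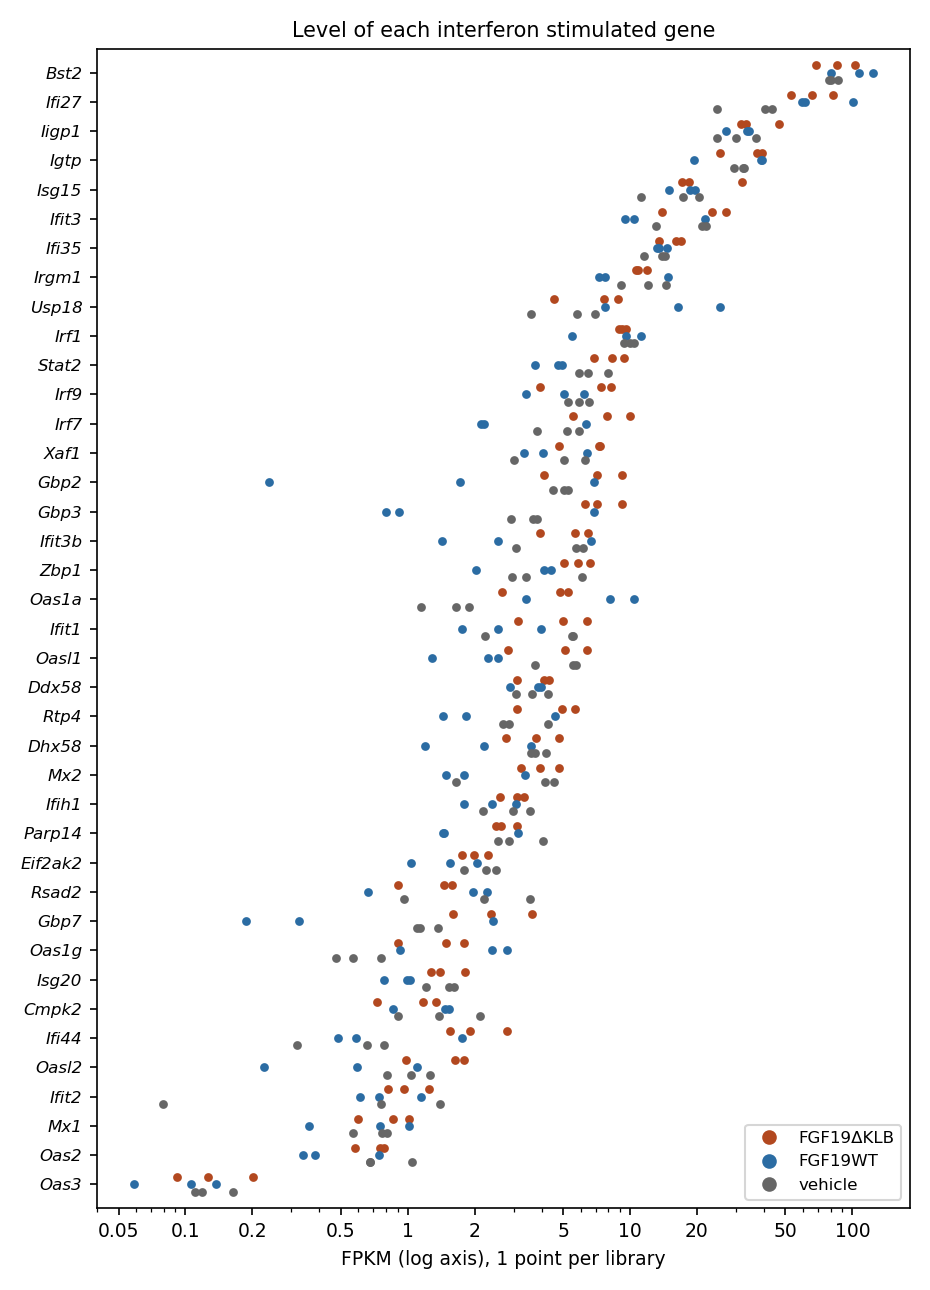
FPKM of each of the 39 genes on a log axis, ordered by mean, with 1 point per library (brown FGF19ΔKLB, blue FGF19WT, grey vehicle). Bst2 is highest at a mean of 90.4 FPKM and Oas3 lowest at 0.124. The low blue points of Gbp2, Gbp3 and Gbp7 are FGF19WT 2 and 3.

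FGF19ΔKLB against vehicle asks what the variant changed. Ifi44 and Gbp3 rose over the 6 libraries of these groups, by 4.0-fold and 2.43-fold. They are 2 of 39 genes called higher by edgeR at an adjusted p under 0.05, where 0.894% of all genes were called higher. Of the 39 genes, 36 had positive log2 fold changes, with a median of 0.38, while 49.9% of all genes were positive. In the same fit 14 of the 39 had an unadjusted p under 0.05, all higher, which is 35.9% of them against 17.3% of all genes. Negative values were seen for Rsad2 (−0.58), Cmpk2 (−0.26) and Parp14 (−0.03), none of which passed the test. In a bulk tissue, a change in RNA per cell and a change in the number of cells that make it cannot be told apart.

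The same comparison with the error taken from all 9 libraries called 0 of the 39 genes, where edgeR called 0.0110% of all genes. At an unadjusted p under 0.05 there were 5 of the 39, all higher (12.8%, against 8.35% of all genes). Limma on log2(FPKM + 1) called 0 of the 36 genes past its filter, where 0.476% of all genes were called. It had 3 at an unadjusted p under 0.05 (8.33%, against 11.5% of all genes). Over the 6 libraries limma called 2 of 34 genes past its filter, Ifi44 and Gbp3, both higher. Of all genes, 469 of 10218 were called, 130 of them higher. There 6 of the 34 had an unadjusted p under 0.05 (17.6%, against 23.8% of all genes). The biological coefficient of variation was 0.471 over 9 libraries and 0.326 over the 6. DESeq2 called 3 over 9 libraries, Ifi44, Oas1a and Ifi27, all higher, where it called 182 of 18142 genes higher and 2.04% in either direction. Over 6 libraries it called 7, Irf7, Ifi44, Gbp3, Gbp7, Oas1a, Ifi27 and Oas1g, all higher. Of all genes it called 664 of 17340 higher there, and 7.95% in either direction. All 3 FGF19ΔKLB libraries lay above all 3 vehicle libraries in 10 of the 39, where this held for 12.4% of all genes. These were Irf7, Zbp1, Oas1a, Oas1g, Gbp3, Gbp7, Iigp1, Ifi27, Ifi35 and Ifi44. None lay wholly below, where 12.2% of all genes did.

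**Figure D2:**
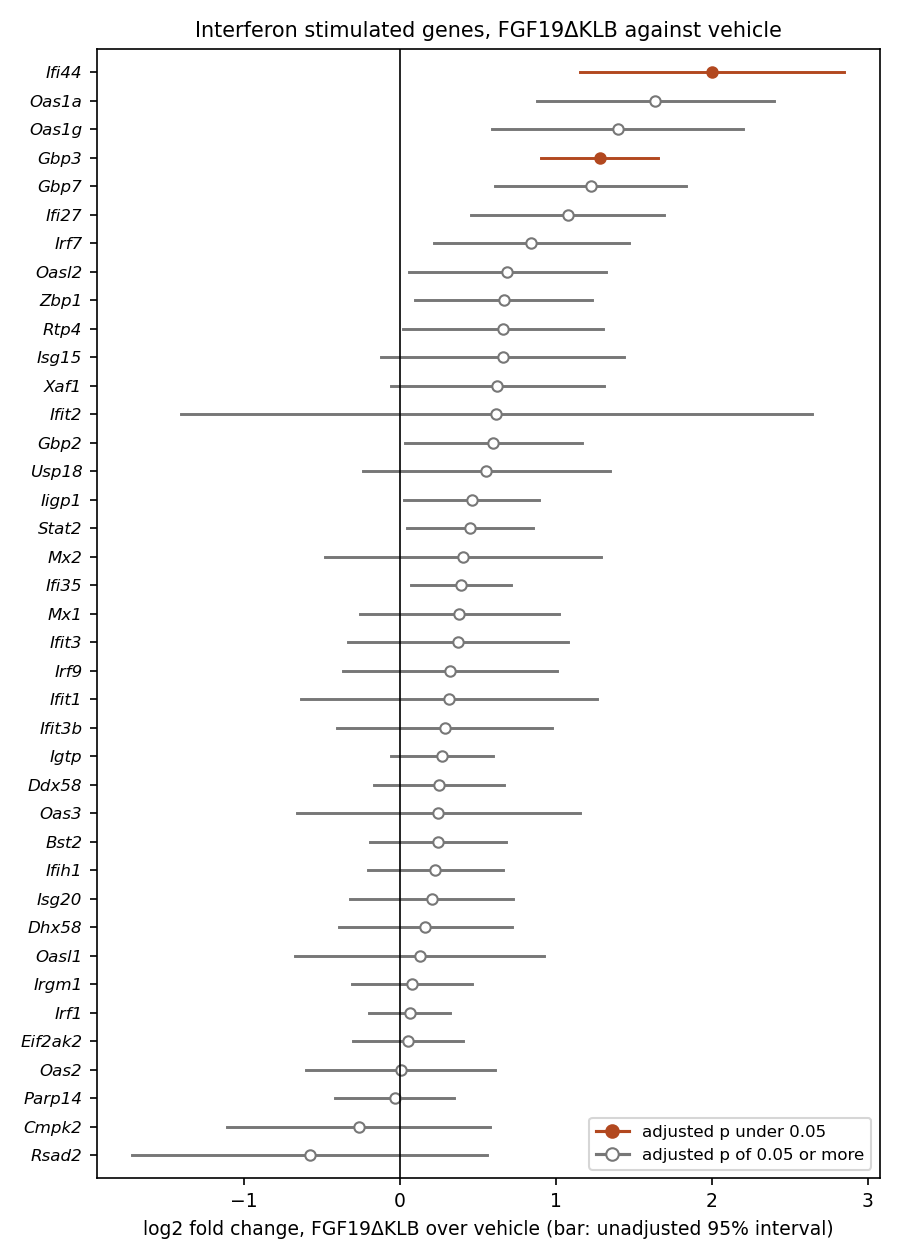
Log2 fold changes of the 39 genes, FGF19ΔKLB over vehicle, from edgeR on 6 libraries, with unadjusted 95% intervals. The 36 genes right of 0 include Ifi44 and Gbp3, the filled points, which had an adjusted p under 0.05.

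The shift differed among libraries of a group. The median over the 39 genes of the log2 difference from the vehicle mean was 0.55, 0.04 and 0.60 in FGF19ΔKLB 1, 2 and 3. It was 0.24, −0.54 and −0.67 in FGF19WT 1, 2 and 3, and 0.09, −0.22 and 0.17 in vehicle 1, 2 and 3. FGF19ΔKLB 2 thus lay within the range of the vehicle libraries. It was the lowest of its group in 32 of the 39 genes (82.1%, against 31.9% of all genes), and vehicle 2 was the lowest of its group in 31 (79.5%, against 35.2%). The genes also spread more within groups than most. Their median SD on the log2 scale was 0.41 with FGF19ΔKLB (0.21 over all genes), 0.66 with FGF19WT (0.34 over all genes) and 0.27 with vehicle (0.19 over all genes).

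**Figure D3:**
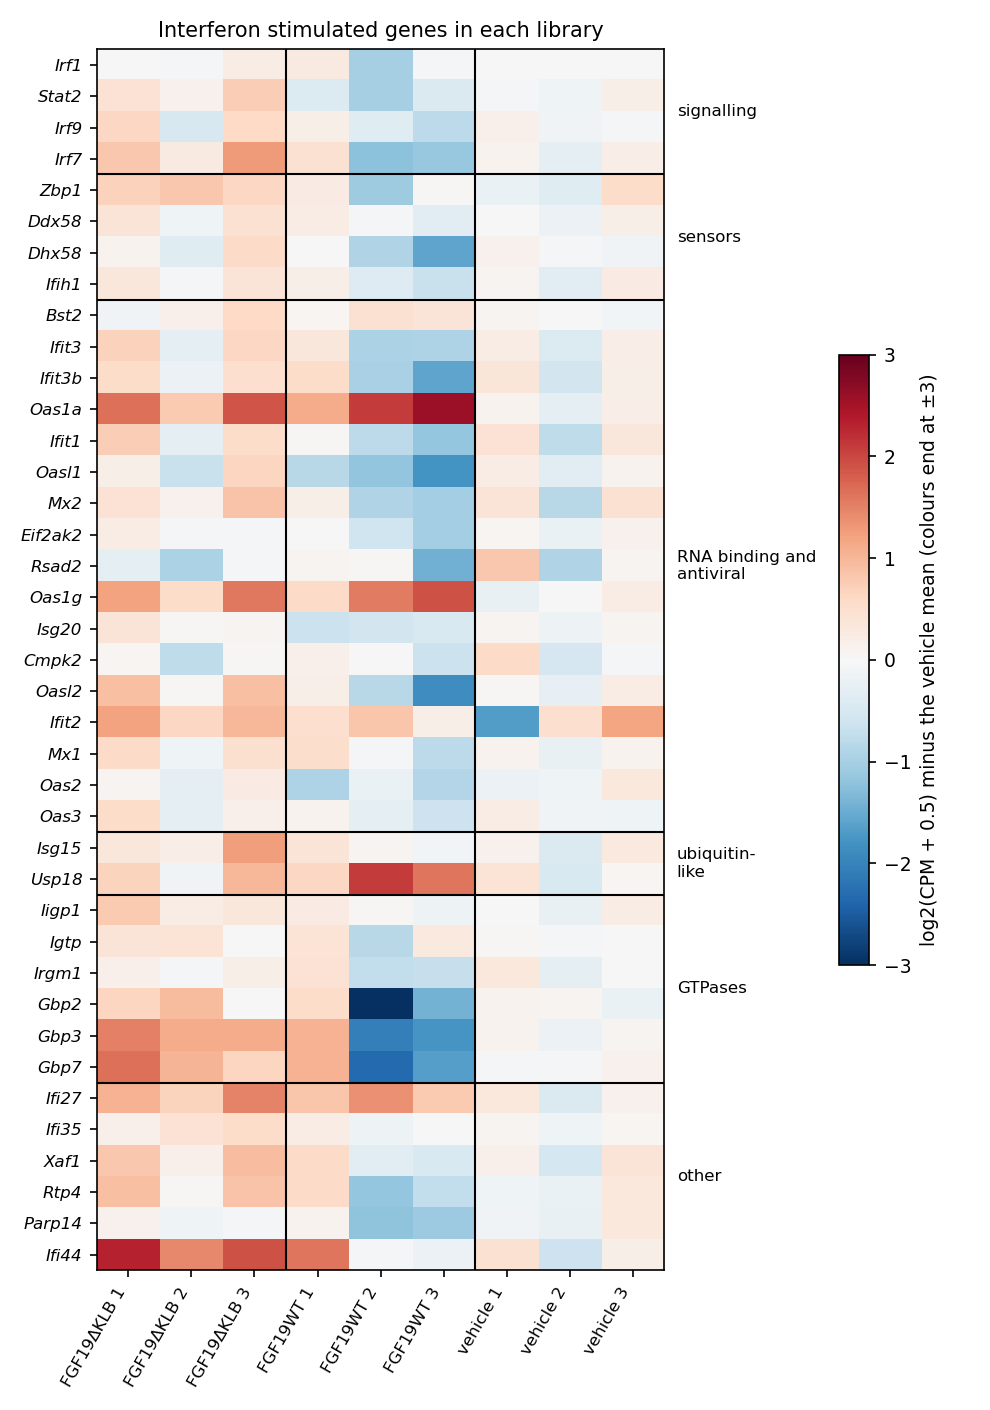
Log2(CPM + 0.5) of each gene in each library minus the mean of the vehicle libraries, as colours from blue (lower) to red (higher), ordered by role and then by mean FPKM. FGF19ΔKLB 1 and 3 are mostly red, with medians of 0.55 and 0.60, FGF19ΔKLB 2 is paler at 0.04, and FGF19WT 2 and 3 are mostly blue at −0.54 and −0.67, with Oas1a, Oas1g, Usp18 and Ifi27 red.

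FGF19WT against vehicle asks what the natural hormone changed. No gene of the 39 passed the test, and the libraries of FGF19WT differed widely from each other. Oas1a, Oas1g, Usp18 and Ifi27 lay above all vehicle libraries in all 3 FGF19WT libraries. Stat2, Oas2, Oasl1 and Isg20 lay below. These are 4 of 39 in each direction, where 11.0% of all genes lay wholly above and 11.6% wholly below. Over 9 libraries edgeR called 0 of the 39, where 0.110% of all genes were called, with 7 at an unadjusted p under 0.05 (17.9%, against 18.8% of all genes). Over the 6 libraries of these groups it called 0, where 0.00574% of all genes were called, with 6 at an unadjusted p under 0.05 (15.4%, against 14.5% of all genes). DESeq2 called 6 over 9 libraries, where it called 9.61% of all genes, with Usp18, Oas1a, Ifi27 and Oas1g higher and Isg20 and Oasl1 lower. Over 6 libraries it called 5 of these, without Isg20, where it called 6.32% of all genes.

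The median log2 fold change of the 39 genes with FGF19WT was −0.25, with 11 positive and 28 negative, where 49.6% of all genes were positive. Without FGF19WT 2 and 3, which leaves FGF19WT 1 alone, it was 0.22. Then 32 were positive and 7 negative, where 47.8% of all genes were positive. FGF19WT 1 lay above all 3 vehicle libraries in 22 of the 39 (56.4%, against 28.3% of all genes). FGF19WT 2 and 3 both lay below the other 7 libraries in 18 of the 39 (46.2%, against 18.97% of all genes), and both above them in 2, Oas1a and Usp18 (5.13%, against 18.4%). Without FGF19WT 1, edgeR called 4 of the 39 higher and 14 lower against vehicle, where it called 13.1% of all genes higher and 14.3% lower. The 4 were Usp18, Oas1a, Ifi27 and Oas1g, and the 14 included all 3 Gbp genes, Irf7, Stat2, Ifit3 and Ifit3b. These counts rest on FGF19WT 2 and 3 alone and describe those libraries.

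FGF19ΔKLB against FGF19WT asks where the variant and the natural hormone differ. No gene of the 39 passed, over 9 libraries (0% of all genes were called) or over 6 (0.00584% of all genes). Positive log2 fold changes were seen in 33 of the 39, where 50.9% of all genes were positive, with a median of 0.61. With FGF19WT 1 alone in its group they were seen in 30, where 51.8% of all genes were positive, with a median of 0.17. Over 9 libraries 10 of the 39 had an unadjusted p under 0.05 (25.6%, against 12.5% of all genes), 9 of them higher, and over 6 libraries 5 had one (12.8%, against 8.80% of all genes). Stat2, Zbp1, Oasl1, Isg20 and Gbp3 lay above all FGF19WT libraries in all 3 FGF19ΔKLB libraries, which is 5 of 39, where 7.15% of all genes did so. None lay wholly below, where 6.39% of all genes did. DESeq2 called 3 higher over 9 libraries, Isg20, Stat2 and Oasl1, where it called 216 of 18142 genes higher and 4.60% in either direction. Over 6 libraries it called Isg20 and Stat2, both higher, where it called 129 of 17123 genes higher and 3.11% in either direction.

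Without FGF19WT 1, edgeR called 19 of the 39 higher and 1, Usp18, lower in FGF19ΔKLB than in FGF19WT, where it called 10.9% of all genes higher and 9.30% lower. In those 8 libraries FGF19ΔKLB against vehicle again gave Ifi44 and Gbp3, 2 of 39 higher, where it called 0.478% of all genes higher. Both comparisons with FGF19ΔKLB share its libraries, and both comparisons with vehicle share those of vehicle, so their values are not independent.

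Values of every library are given for both called genes, for the gene of highest mean FPKM in each role, and for Isg15, Irf7, Ifit1, Oas1a, Mx1, Gbp2 and Ifi27. Values per library of Stat2, Oasl1, Usp18, Gbp7 and Ifit2, group means of Isg20, Oas1g and Ifi35, and the single fold changes and ranges of further genes were added after they were seen. Adjusted p-values given below for single genes are from edgeR's quasi-likelihood test with Benjamini-Hochberg adjustment over all genes.

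Of the 4 signalling and transcription factors, all 4 had positive log2 fold changes with FGF19ΔKLB over vehicle, with a median of 0.39 over 9 libraries, and all 4 negative ones with FGF19WT (median −0.37). With FGF19WT 2 and 3 left out, 3 of the 4 were positive with FGF19WT (median 0.22). Irf7, which amplifies type I interferon production, had the highest with FGF19ΔKLB. It stood at 34.7, 23.6 and 48.3 CPM with FGF19ΔKLB, at 26.9, 8.03 and 8.58 with FGF19WT and at 20.9, 15.9 and 22.5 with vehicle. All FGF19ΔKLB values lay above vehicle, and FGF19WT 2 and 3 lay below both. The change against vehicle over 6 libraries was 0.84 on the log2 scale (SE 0.27, adjusted p = 0.175). Stat2, a part of the type I complex, stood at 56.9, 46.1 and 70.8 CPM with FGF19ΔKLB, 31.5, 21.01 and 30.9 with FGF19WT and 40.9, 38.5 and 47.6 with vehicle. All FGF19WT values lay below all those of the other groups, with a log2 fold change of −0.61 against vehicle over 9 libraries (SE 0.21, adjusted p = 0.186). FGF19ΔKLB over FGF19WT gave 1.06 (SE 0.21, adjusted p = 0.237). Irf1, a factor strongly induced by interferon gamma, had the highest mean FPKM of this group. It stood at 42.4, 40.1 and 48.6 CPM with FGF19ΔKLB, 50.2, 20.9 and 40.3 with FGF19WT and 42.3, 41.3 and 41.8 with vehicle, with overlapping groups. Irf9, the DNA-binding part of the complex, ranged from 19.3 to 51.6 CPM over the 9 libraries and shares its locus with Rnf31.

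The 4 nucleic acid sensors were likewise all positive with FGF19ΔKLB (median 0.24) and all negative with FGF19WT (median −0.25), of which 3 were positive without FGF19WT 2 and 3 (median 0.18). Zbp1, which binds Z-form nucleic acid and can trigger cell death, had the highest mean FPKM. It stood at 24.0, 26.2 and 22.9 CPM with FGF19ΔKLB, 17.4, 6.81 and 15.2 with FGF19WT and 12.8, 11.4 and 21.8 with vehicle. All FGF19ΔKLB values lay above those of both other groups, though vehicle 3 came within about 1 CPM. The log2 fold change of FGF19ΔKLB over vehicle was 0.67 over 6 libraries (SE 0.24, adjusted p = 0.225). The RNA helicases Ifih1 and Ddx58, which encode MDA5 and RIG-I, and their relative Dhx58 had log2 fold changes of 0.23, 0.25 and 0.17 with FGF19ΔKLB and −0.27, −0.05 and −0.72 with FGF19WT over 9 libraries. None passed.

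Of the 17 RNA-binding and antiviral effectors, 15 were positive with FGF19ΔKLB over vehicle (median 0.29) and 4 with FGF19WT (median −0.46). Without FGF19WT 2 and 3, 12 of the 17 were positive with FGF19WT (median 0.10). The oligoadenylate synthetases Oas1a and Oas1g were the pair with higher values under both hormones. They lie side by side on the minus strand of chromosome 5, at 120896256 to 120907521 and 120876142 to 120887613 on GRCm38. Their promoters, at chr5:120907526-120907685 and chr5:120887614-120887773, are shown because each carries the element close to the start site, 20 and 14 bases before it in Oas1a and 18 and 12 bases before it in Oas1g:
Oas1a: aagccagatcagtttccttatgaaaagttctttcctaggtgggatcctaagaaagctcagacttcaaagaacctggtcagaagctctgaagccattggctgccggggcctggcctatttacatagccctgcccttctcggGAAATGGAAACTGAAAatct
Oas1g: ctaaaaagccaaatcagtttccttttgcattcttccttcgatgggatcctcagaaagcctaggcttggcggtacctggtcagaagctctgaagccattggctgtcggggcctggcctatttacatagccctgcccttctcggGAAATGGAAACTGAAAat
The capitals span 2 overlapping matches in each gene. Oas1a stood at 10.6, 5.64 and 12.7 CPM with FGF19ΔKLB, 7.24, 14.7 and 20.7 with FGF19WT and 3.30, 2.39 and 3.60 with vehicle. All 6 hormone values lay above all vehicle values, and FGF19WT 2 and 3 were the highest. The log2 fold change of FGF19ΔKLB over vehicle was 1.64 over 6 libraries (SE 0.32, adjusted p = 0.0566), and that of FGF19WT over vehicle was 2.20 over 9 (SE 0.43, adjusted p = 0.112). Oas1g had group means of 3.95 ± 1.5 CPM with FGF19ΔKLB, 4.90 ± 2.26 with FGF19WT and 1.49 ± 0.309 with vehicle (SD, n = 3 each). The pair cannot be read as independent genes, since 57.6% of the 50-base words of Oas1a transcripts also occur in Oas1g.

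The other genes of the synthetase family, which includes synthetase-like genes, had another order of libraries. Oasl1, which binds the messenger of Irf7, stood at 15.4, 8.31 and 21.4 CPM with FGF19ΔKLB, 7.44, 5.70 and 3.53 with FGF19WT and 15.9, 10.7 and 14.6 with vehicle. All FGF19WT values lay below all others, and the log2 fold change against vehicle was −1.30 over 9 libraries (SE 0.38, adjusted p = 0.143). Oas2 and Oas3 had log2 fold changes of 0.01 and 0.25 with FGF19ΔKLB and −0.75 and −0.38 with FGF19WT. Oasl2 had 0.69 with FGF19ΔKLB and −0.68 with FGF19WT. Under FGF19WT, Oas1a and Oas1g were thus the genes of this family with positive values, and the remaining 4 had negative ones. FGF19WT 1 lay below all vehicle libraries in Oasl1 and Oas2 and within their range in Oas3 and Oasl2. None passed.

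The Ifit genes encode proteins that bind viral RNA. Ifit1 is shown with its promoter at chr19:34640729-34640888 on the plus strand, which holds the element 104 and 85 bases before the start site, as the textbook target of type I interferon:
Ifit1: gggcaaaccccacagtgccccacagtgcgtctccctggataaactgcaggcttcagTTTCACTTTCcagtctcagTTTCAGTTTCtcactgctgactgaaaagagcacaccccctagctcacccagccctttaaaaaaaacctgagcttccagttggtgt
Ifit1 stood at 19.6, 9.36 and 17.0 CPM with FGF19ΔKLB, 11.9, 6.43 and 4.89 with FGF19WT and 15.7, 6.53 and 14.7 with vehicle. The groups overlapped, and library 2 was the lowest of both the FGF19ΔKLB and the vehicle group. The log2 fold change of FGF19ΔKLB over vehicle was 0.32 over 6 libraries (SE 0.40, adjusted p = 0.739). Ifit3 and Ifit3b, which share 51.2% of the 50-base words of Ifit3, had 0.38 and 0.29 over 9 libraries. Ifit2 had 0.62 (SE 0.75), with 5.68, 3.60 and 4.83 CPM with FGF19ΔKLB, 3.30, 4.29 and 2.53 with FGF19WT and 0.334, 3.28 and 5.55 with vehicle, where vehicle 1 stood far below the other 8 libraries.

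Of the remaining antiviral effectors, Bst2 stood at 71.9, 86.5 and 119.0 CPM with FGF19ΔKLB, 81.4, 106.3 and 101.9 with FGF19WT and 82.7, 77.7 and 73.5 with vehicle. The groups overlapped. Mx1, a GTPase that blocks viral nucleocapsids, stood at 4.49, 2.56 and 4.19 CPM with FGF19ΔKLB, 4.32, 2.74 and 1.44 with FGF19WT and 3.10, 2.39 and 3.12 with vehicle, also with overlap. Mx2, which is annotated as a polymorphic pseudogene, ranged from 5.70 to 22.2 CPM. Isg20, an exonuclease of RNA, had 3.31 ± 0.538 CPM with FGF19ΔKLB, 1.81 ± 0.152 with FGF19WT and 2.87 ± 0.320 with vehicle (SD, n = 3 each), and all FGF19WT values were the lowest. Its log2 fold change was −0.67 for FGF19WT over vehicle and 0.87 for FGF19ΔKLB over FGF19WT over 9 libraries (adjusted p = 0.203 and 0.251). Eif2ak2, the kinase PKR, Rsad2, an enzyme that makes an antiviral nucleotide, and its neighbour Cmpk2 had 0.05, −0.57 and −0.26 for FGF19ΔKLB over vehicle in that fit.

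Isg15 and Usp18 had positive log2 fold changes with both hormones over vehicle, with a median of 0.61 with FGF19ΔKLB and 0.83 with FGF19WT, or 0.48 without FGF19WT 2 and 3. Isg15 encodes a ubiquitin-like protein that is joined to other proteins, and Usp18 encodes the enzyme that removes it and that also dampens the type I receptor. The Isg15 promoter at chr4:156200819-156200978 on the minus strand is shown because it holds 3 overlapping matches, 78, 72 and 66 bases before the start site:
Isg15: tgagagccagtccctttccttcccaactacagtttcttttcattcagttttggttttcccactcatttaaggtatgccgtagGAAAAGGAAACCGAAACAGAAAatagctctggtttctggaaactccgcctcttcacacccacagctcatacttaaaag
Isg15 stood at 16.2, 14.6 and 30.7 CPM with FGF19ΔKLB, 16.7, 13.4 and 11.9 with FGF19WT and 14.0, 9.30 and 15.7 with vehicle. FGF19ΔKLB 3 stood above all other libraries and the groups overlapped, with a log2 fold change over vehicle of 0.66 over 6 libraries (SE 0.33, adjusted p = 0.368). Usp18 stood at 24.8, 14.3 and 31.4 CPM with FGF19ΔKLB, 24.1, 67.7 and 48.1 with FGF19WT and 20.6, 11.1 and 16.3 with vehicle. FGF19WT 2 and 3 were the highest of the 9 libraries. FGF19WT over vehicle gave 1.54 over 9 libraries (SE 0.43, adjusted p = 0.135).

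All 6 GTPases of the Gbp and Irg families had positive log2 fold changes with FGF19ΔKLB over vehicle, with a median of 0.53. The guanylate-binding proteins attack the vacuoles and membranes of pathogens. Gbp7, Gbp3 and Gbp2 lie in this order on the plus strand of chromosome 3, at 142530342 to 142550149, 142560026 to 142573209 and 142620602 to 142638008 on GRCm38. Their promoters, at chr3:142530176-142530335, chr3:142559884-142560043 and chr3:142620503-142620662, are shown because these neighbours are among the 4 genes with the widest range between libraries and each holds the element within 60 bases of the start site, at 53 bases in Gbp7, 45 and 39 in Gbp3 and 59 in Gbp2:
Gbp7: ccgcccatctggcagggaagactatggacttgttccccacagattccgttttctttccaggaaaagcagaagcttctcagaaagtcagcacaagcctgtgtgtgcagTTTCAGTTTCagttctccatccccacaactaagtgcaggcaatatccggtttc
Gbp3: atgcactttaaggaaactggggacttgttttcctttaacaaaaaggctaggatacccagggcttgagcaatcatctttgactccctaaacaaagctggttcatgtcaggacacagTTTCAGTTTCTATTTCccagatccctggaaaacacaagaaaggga
Gbp2: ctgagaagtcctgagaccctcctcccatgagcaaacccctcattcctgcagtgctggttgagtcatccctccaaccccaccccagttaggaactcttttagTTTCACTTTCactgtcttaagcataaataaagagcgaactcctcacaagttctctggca
Gbp3 stood at 34.9, 26.1 and 26.1 CPM with FGF19ΔKLB, 25.1, 2.48 and 3.16 with FGF19WT and 12.8, 10.4 and 12.7 with vehicle. FGF19ΔKLB lay above vehicle without overlap, FGF19WT 1 lay near FGF19ΔKLB, and FGF19WT 2 and 3 lay below all others. Gbp3 rose with FGF19ΔKLB by 1.28 on the log2 scale over 6 libraries (SE 0.16, 95% interval 0.90 to 1.66, adjusted p = 0.0187). With the error of all 9 libraries the SE was 0.77 and the adjusted p 0.730. The call was lost in the 6-library fit without vehicle 1, 2 or 3, with adjusted p of 0.0665, 0.0603 and 0.0567.

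Gbp7 and Gbp2 had the same order of libraries in outline but did not pass. Gbp7 stood at 23.6, 14.9 and 11.5 CPM with FGF19ΔKLB, 15.2, 1.01 and 1.93 with FGF19WT and 6.77, 6.82 and 7.80 with vehicle. FGF19ΔKLB again lay above vehicle without overlap, with a log2 fold change of 1.22 over 6 libraries (SE 0.26, adjusted p = 0.0698). Gbp2 stood at 20.7, 26.0 and 13.3 CPM with FGF19ΔKLB, 19.3, 0.580 and 4.57 with FGF19WT and 14.1, 14.0 and 11.4 with vehicle. FGF19ΔKLB 3 lay within the vehicle range, and the change was 0.60 (SE 0.24, adjusted p = 0.268). The lowest Gbp2 value, in FGF19WT 2, rests on 47 counts, or about 12 read pairs. Gbp7 overlaps the pseudogene Gm43802 on the same strand, which holds 10.5% of its 50-base words.

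Of the immunity-related GTPases, which act on vacuole membranes, none passed. Iigp1 stood at 316.6, 217.1 and 235.3 CPM with FGF19ΔKLB, 218.3, 189.7 and 165.7 with FGF19WT and 184.4, 157.3 and 216.5 with vehicle. FGF19ΔKLB lay above vehicle without overlap, by less than 1 CPM between FGF19ΔKLB 2 and vehicle 3, with a log2 fold change of 0.46 over 6 libraries (SE 0.18, adjusted p = 0.262). Igtp and Irgm1 had 0.27 and 0.08 with FGF19ΔKLB over 9 libraries. Igtp overlaps Irgm2 on the same strand.

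Of the 6 other induced genes, 5 were positive with FGF19ΔKLB over vehicle (median 0.65) and 3 with FGF19WT, or all 6 without FGF19WT 2 and 3. Ifi44, an interferon-induced protein of unclear function, had the highest fold change of all 39 genes with FGF19ΔKLB. It lies on the minus strand of chromosome 3 at 151730922 to 151749960. The promoter at chr3:151749911-151750070 on the minus strand is shown because of that rank. It holds no match in this window at the gap of 2 bases searched for. Copies of GAAA at other gaps, which it does hold on the opposite strand, were not counted:
Ifi44: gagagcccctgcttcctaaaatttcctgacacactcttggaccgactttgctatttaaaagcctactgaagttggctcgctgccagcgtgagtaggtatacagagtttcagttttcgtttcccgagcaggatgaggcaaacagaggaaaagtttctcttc
Ifi44 stood at 19.9, 10.7 and 14.9 CPM with FGF19ΔKLB, 12.1, 3.44 and 3.13 with FGF19WT and 5.10, 2.17 and 4.09 with vehicle. FGF19ΔKLB lay above vehicle without overlap, and FGF19WT 2 and 3 lay among the vehicle values. Ifi44 rose with FGF19ΔKLB by 2.0 on the log2 scale over 6 libraries (SE 0.36, 95% interval 1.15 to 2.85, adjusted p = 0.0490). With the error of all 9 libraries the SE was 0.57 and the adjusted p 0.384. The 6-library call was lost without any 1 vehicle library and without FGF19ΔKLB 1 or 3, with adjusted p of 0.0758 to 0.138, and with DESeq2 size factors, at 0.0501.

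Ifi27 was higher under both hormones, without overlap with vehicle. It stood at 112.6, 87.3 and 154.0 CPM with FGF19ΔKLB, 98.1, 141.0 and 94.4 with FGF19WT and 67.5, 39.9 and 60.03 with vehicle. The log2 fold change over vehicle was 1.08 with FGF19ΔKLB over 6 libraries (SE 0.26, adjusted p = 0.0988) and 0.99 with FGF19WT over 9 (SE 0.28, adjusted p = 0.141). The 2 hormones differed by 0.09 over 9 libraries, with an unadjusted 95% interval of −0.56 to 0.73. Ifi35 was above vehicle without overlap with FGF19ΔKLB, at 31.9 ± 4.48 against 24.3 ± 1.98 CPM (SD, n = 3 each). Xaf1, a protein that promotes cell death, Rtp4, a chaperone of membrane receptors, and Parp14, an ADP-ribosyltransferase, had 0.63, 0.66 and −0.03 over 9 libraries.

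**Figure D4:**
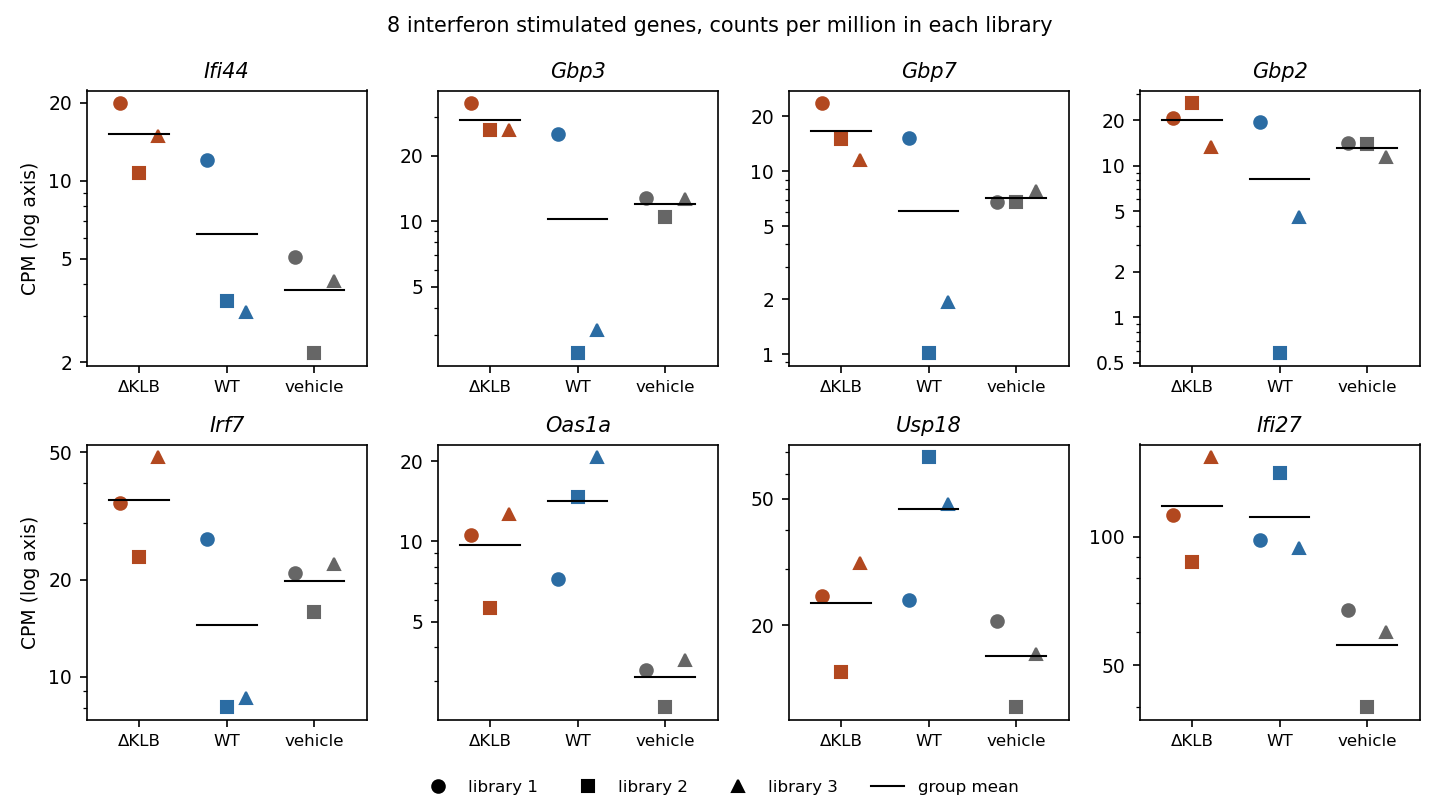
CPM of 8 genes in each library on log axes, with circles, squares and triangles for libraries 1, 2 and 3 and lines at group means. Ifi44, Gbp3 and Gbp7 are above vehicle in all 3 FGF19ΔKLB libraries. The Gbp genes and Irf7 are lowest in FGF19WT 2 and 3, while Oas1a and Usp18 are highest there.

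No gene of the lists that cover the rest of the pathway passed the test. Of 21 interferon genes listed, Ifnb1, Ifnk and Ifng had a row and none was past the filter. Ifnb1 had counts in 1 library, FGF19ΔKLB 3, at 0.115 CPM, which is below the floor of 3 read pairs in a library. Ifng, at 0 in all FGF19ΔKLB libraries, had 0.189 CPM in FGF19WT 3 and 0.0586 in vehicle 2. None of the 14 receptor and JAK-STAT genes, 23 sensing genes, 48 other type I response genes or 25 interferon gamma response genes was called in any edgeR fit of the 3 comparisons over 9 or 6 libraries. With FGF19ΔKLB over vehicle, the median log2 fold change over 9 libraries was −0.01 for the receptor and JAK-STAT genes, with 7 of 14 positive, and −0.17 for the sensing genes, with 7 of 23 positive. It was 0.04 for the other type I response genes, with 26 of 48 positive, and −0.15 for the interferon gamma response genes, with 10 of 25 positive. The 39 genes, at 36 positive and a median of 0.38, and the 48 other type I response genes thus had unlike values, and both sets were chosen with earlier results of these data known.

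With FGF19WT over vehicle the median was 0.06 for the receptor genes, −0.27 for the sensing genes, −0.32 for the other type I response genes and −0.09 for the interferon gamma response genes. Without FGF19WT 2 and 3 these medians were 0.14 for the receptor genes, −0.04 for the sensing genes, 0.08 for the other type I response genes and 0.22 for the interferon gamma response genes. With FGF19ΔKLB over FGF19WT it was −0.09 for the receptor genes, 0.15 for the sensing genes, 0.39 for the other type I response genes and −0.04 for the interferon gamma response genes. Without FGF19WT 2 and 3 it was −0.08 for the receptor genes, −0.03 for the sensing genes, −0.01 for the other type I response genes and −0.35 for the interferon gamma response genes, with 3 of 25 positive. By library, the 48 other type I response genes had medians of 0.12, −0.21 and 0.08 from the vehicle mean with FGF19ΔKLB and of 0.07, −0.34 and −0.58 with FGF19WT. Vehicle stood at 0.06, −0.12 and 0.16. FGF19WT 2 and 3 were the lowest libraries in this list as in the 39 genes, and FGF19ΔKLB lay in the vehicle range or below it.

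**Figure D5:**
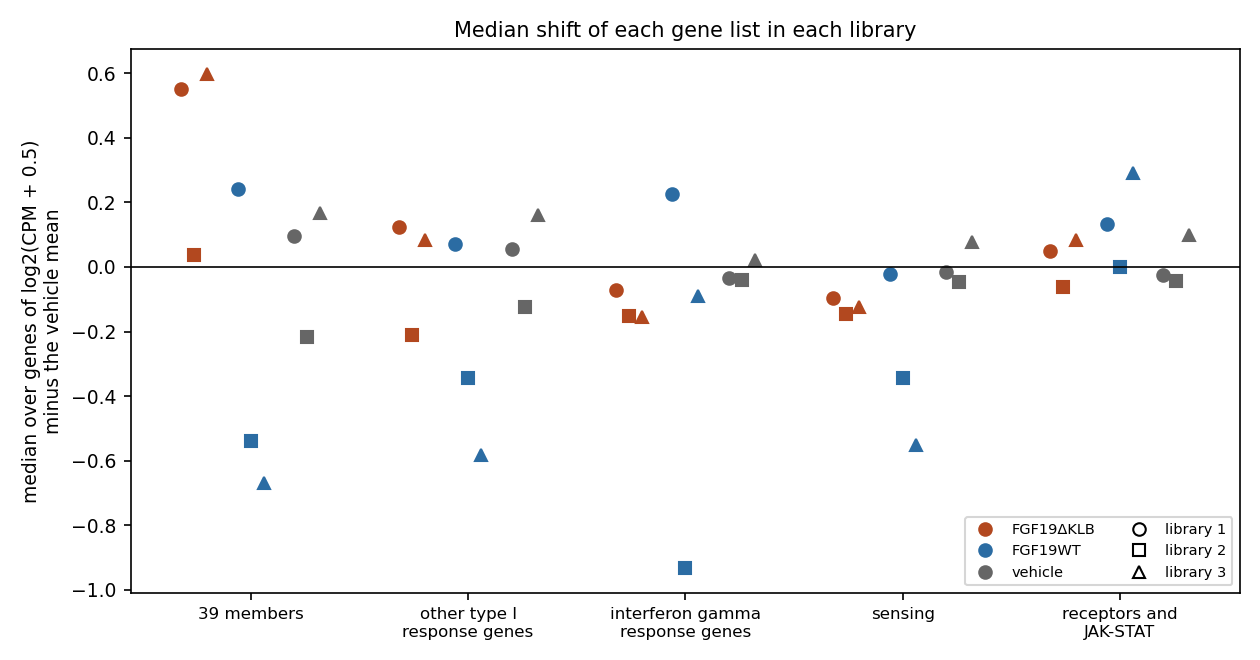
Median over the genes of each list of log2(CPM + 0.5) minus the vehicle mean, 1 point per library. The 39 genes are at 0.55 and 0.60 in FGF19ΔKLB 1 and 3, while the 48 other type I response genes are at 0.12 and 0.08 there. FGF19WT 2 and 3 are below 0 in the 39 genes, the other type I response genes, the interferon gamma response genes and the sensing genes.

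Of the receptor genes, Ifngr1, the ligand-binding chain for interferon gamma, stood at 12.4, 9.75 and 26.4 CPM with FGF19ΔKLB, 16.7, 91.5 and 68.7 with FGF19WT and 12.2, 7.44 and 14.1 with vehicle. FGF19WT 2 and 3 were far above all others, with a log2 fold change over vehicle of 2.39 over 9 libraries (SE 0.63, adjusted p = 0.128). With FGF19ΔKLB over vehicle the type I receptor chains Ifnar1 and Ifnar2 had log2 fold changes of −0.24 and 0.27 over 9 libraries, Ifngr2 −0.09, and the kinases Jak1 and Tyk2 −0.02 and −0.20. Irf3, which starts interferon production, had 0.30 (adjusted p = 0.670), and Socs1, a feedback inhibitor, had at most 1.15 CPM in any library.

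Sums of markers of other liver cells differed between the same libraries. The 10 Kupffer cell markers summed to 217.0 to 275.3 CPM with FGF19ΔKLB, to 257.3, 77.3 and 35.8 in FGF19WT 1, 2 and 3, and to 255.6 to 385.7 with vehicle, with Timd4 at 0 in FGF19WT 2 and 3 and Marco at 0 in FGF19WT 3. The 10 sinusoidal endothelial markers summed to 105.7 to 167.2 CPM with FGF19ΔKLB, to 235.8, 65.9 and 88.0 with FGF19WT, and to 185.4 to 213.9 with vehicle. With FGF19ΔKLB over vehicle, 2 of the 10 Kupffer and 0 of the 10 sinusoidal markers had positive log2 fold changes. The 12 T and NK cell markers summed to 3.15 to 4.96 CPM with FGF19ΔKLB, 4.05 to 7.66 with FGF19WT and 8.98 to 18.5 with vehicle. B and plasma cell markers summed to 31.0 to 70.1 CPM with FGF19ΔKLB, 4.03 to 30.3 with FGF19WT and 102.5 to 245.6 with vehicle. In FGF19WT 1, which had the sum of 30.3, 5 of the 8 were above the vehicle mean, with a median log2 difference of 0.45. Neutrophil markers summed to 15.8, 141.6 and 9.76 CPM in FGF19ΔKLB 1, 2 and 3, to 2.58 to 9.10 with FGF19WT and to 5.18 to 30.7 with vehicle. FGF19ΔKLB 2, the highest of all 9 libraries in these markers, was also the lowest of its group in 32 of the 39 genes. Vehicle 2, the lowest of its group in 31 of the 39, stood between vehicle 1 and 3 in these markers, at 23.6 CPM. Stellate cell markers summed to 146.6 to 289.9 CPM with FGF19ΔKLB, 231.5 to 301.1 with FGF19WT and 389.6 to 447.9 with vehicle. Recruited macrophage markers stood at 42.9 to 85.5 CPM with FGF19ΔKLB, 22.7 to 89.9 with FGF19WT and 72.7 to 91.6 with vehicle, and cholangiocyte markers at 26.4 to 59.2 CPM with FGF19ΔKLB, 15.9 to 34.9 with FGF19WT and 49.5 to 63.5 with vehicle. Plasmacytoid dendritic cells are a main source of type I interferon. Their 8 markers summed to 5.05 to 6.91 CPM with FGF19ΔKLB, 6.39 to 61.7 with FGF19WT and 4.98 to 8.83 with vehicle. In FGF19WT 2, which had the sum of 61.7, 5 of the 8 were below the vehicle mean, with a median log2 difference of −0.06. Siglech, which defines these cells, was at 0 in all 3 FGF19WT libraries and in vehicle 2. No gene of these 9 lists was called over all 9 libraries. Over the 6 libraries of FGF19ΔKLB and vehicle, Cd8a, a subunit of a T cell co-receptor, fell with FGF19ΔKLB (log2 fold change −3.29, adjusted p = 0.0187), and over 9 libraries its adjusted p was 0.114. In the 9-library fit without FGF19WT 2 and 3, Cd8a and the stellate marker Ecm1 were called lower with FGF19ΔKLB than with vehicle. The 39 genes thus had a positive median with FGF19ΔKLB where the sums of T and NK, B and plasma, stellate and sinusoidal endothelial markers were lower than in vehicle. The Kupffer, recruited macrophage, neutrophil, cholangiocyte and plasmacytoid dendritic cell sums with FGF19ΔKLB overlapped those of vehicle. In FGF19WT 2 and 3 the median of the 39 genes was negative, and Kupffer, sinusoidal, B and plasma and neutrophil sums were the lowest of all libraries. T and NK, stellate and cholangiocyte sums were not, but their median log2 differences from the vehicle mean were the lowest there. These were −0.92 and −0.85 for T and NK and −0.67 and −0.95 for cholangiocyte markers. Stellate markers stood at −1.51 and −3.21, with FGF19ΔKLB 1 at −1.50. Recruited macrophage and plasmacytoid dendritic cell medians were not the lowest in FGF19WT 2. Hepatocyte markers ran with the 39 genes in part. Their median log2 difference from the vehicle mean was 0.51, 0.48 and 0.79 in FGF19ΔKLB 1, 2 and 3 and 0.55, −0.66 and −0.55 in FGF19WT 1, 2 and 3, while vehicle stood between −0.09 and 0.06. The part of these cells in the results was not tested.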

How the data were processed

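Total liver RNA was sequenced in 9 libraries. The deposited table gives, per gene, expected counts and FPKM values that the authors made with StringTie 1.3.0, HISAT2 2.0 and Bowtie 0.12.2 among the tools named, per the submitters' processing notes, which do not give each tool's role. Those notes name the build mm8, but the table's gene positions were those of GENCODE M21 on GRCm38. The expected counts, as deposited by the authors, are whole numbers that pile up at multiples of 4 where low. They were therefore taken as about 4 counts to a read pair, though the origin of this is not stated. Whether strand was used is not given in the sources used here. Columns were matched to samples by the labels' descriptions, where FGF19ΔKLB columns carry another code.

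The quasi-likelihood test of edgeR 4.0.16 (R 4.3.3, TMM factors, filterByExpr, robust) was fitted to all genes over 9 libraries, and over the 6 of each pair of groups. A gene was called at a Benjamini-Hochberg adjusted p under 0.05. CPM values use TMM library sizes, and log2 values per library add 0.5 CPM. DESeq2 1.42.0, limma 3.58.1 on log2(FPKM + 1) (a gene needed 1 FPKM or more in 3 or more libraries), other filters and scalings, and leaving out libraries were alternatives. The edgeR steps were tested on simulated data. SDs are over the 3 libraries of a group, and intervals on shares cover counting error only. The 39 genes, the pathway lists and the marker lists were chosen with earlier results of these data known. Named genes are those called in any of the 6 fits, the gene of highest mean FPKM in each role, and Isg15, Irf7, Ifit1, Oas1a, Mx1, Gbp2 and Ifi27, with set genes of the pathway. Other genes were named after their values were seen. Promoter and start site sequences are from RefSeq (GRCm38.p6), and for Iigp1 none is shown. The values of 1 gene of the pathway lists are not reported here.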

Additional observations from a re-analysis of the deposited data

How the results depend on the processing

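Over 9 libraries, DESeq2 called 6 of the 39 genes with FGF19WT against vehicle, 3 with FGF19ΔKLB against vehicle and 3 with FGF19ΔKLB against FGF19WT, where edgeR called 0. Over 6 libraries it called 5, 7 and 2, where edgeR called 0, 2 and 0. Leaving out 1 library gave 0 to 18, 0 to 2 and 0 to 20 calls in these comparisons over 9 libraries, and 0 to 15, 0 to 4 and 0 to 16 over 6. The highest counts of FGF19WT comparisons came without FGF19WT 1. Over 9 libraries 5221 of 19025 genes were then called for FGF19WT against vehicle and 3846 of 19025 for FGF19ΔKLB against FGF19WT. Over 6 libraries these were 4697 of 18417 and 2843 of 18045. For FGF19ΔKLB against vehicle over 6 libraries, 0 of the 39 were called without vehicle 1, 2 or 3. Of all genes, 44 of 17867, 95 of 17988 and 84 of 17859 were called there. Without FGF19ΔKLB 1 or 3 it was 1 of the 39, where 70 of 17942 and 98 of 18059 genes were called. Without FGF19ΔKLB 2 it was 4, where 276 of 17975 genes were. It was 4 with no filter (436 of 26984 genes), 3 with counts divided by 4 (402 of 14073 genes) and 1 with DESeq2 size factors (295 of 17340 genes). Without FGF19WT 2 and 3 together, FGF19WT 1 alone stands for its group. The median of the 39 genes was then 0.22 for FGF19WT against vehicle, the opposite sign, and 0.17 for FGF19ΔKLB against FGF19WT. The cause was not tested. The median for FGF19ΔKLB against vehicle stayed positive in all 18 alternatives, at 0.27 to 0.57 when 1 library was left out. 1 sign in all 17 alternatives to the 9-library fit was kept by 30 of 39 genes there, 11 with FGF19WT against vehicle and 27 with FGF19ΔKLB against FGF19WT. With limma on log2(FPKM + 1) over 9 libraries, the median over all genes was −0.10 for FGF19ΔKLB against vehicle, where 28 of 36 of the genes stayed positive (median 0.22), and −0.13 for FGF19ΔKLB against FGF19WT. Over all genes, FGF19ΔKLB against vehicle gave 292 calls over 6 libraries, 1378 with DESeq2 and 44 to 276 without 1 library. FGF19WT against vehicle gave 20 over 9 libraries, 1743 with DESeq2, 1 with the replicate block, 5221 without FGF19WT 1 and 0 to 3 without any other 1 library. Same-numbered libraries of different groups were compared by each gene's deviation from its group mean, over the genes past the filter. These deviations correlated at −0.075 to 0.178, with 1 of 9 pairs over 0.1. Those of differently numbered libraries correlated at −0.197 to 0.138. With 3 libraries a group this cannot exclude a pairing by number. With the replicate block, 0, 0 and 0 of the 39 genes were called over 9 libraries, where 1, 0 and 0 of 18142 genes were. Over 6 libraries the block gave 0, 2 and 0 of the 39, where 0 of 17430, 103 of 17340 and 0 of 17123 genes were called. An unadjusted edgeR p under 0.05 was then reached by 7, 6 and 15 over 9 libraries (7, 5 and 10 without the block). The shares of all genes with the block were 17.8%, 7.49% and 11.4%. Over 6 libraries it was reached by 6, 18 and 12 (6, 14 and 5 without the block), with 10.6%, 15.5% and 7.66% of all genes. At 3 libraries a group and this spread, a missed threshold leaves a difference unshown either way.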
